A study of Mus musculus with 12 samples.

Results

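The genes described here belong to the TGF-beta pathway: the ligands Tgfb1, Tgfb2 and Tgfb3, the latency protein gene Ltbp1, the receptors Tgfbr1, Tgfbr2 and Tgfbr3, the signal carrier Smad3 and the feedback genes Smad7 and Skil. The 10 genes were chosen by symbol, and each matched 1 Ensembl gene among the 55487 genes of the count table. All 10 were among the 11314 protein-coding genes that passed the filter on low counts. RNA was measured in primary mesenchymal stromal cells (MSCs) from the bone marrow of wild-type (WT) C57BL/6 mice, in 3 groups of 4 samples. Control MSCs were untreated, and no time is given for them. Whether their medium was changed along with that of the treated groups is not given either. The second group was treated for 6 h with 50 μM A1, a variant of Accum in which a bile acid is joined to a peptide that carries a nuclear localization signal. The third group received 50 μM A1 together with 1 mg/mL ovalbumin (OVA), the main protein of chicken egg white and a common model antigen, for the same 6 h. All groups were grown in AMEM with 10% fetal bovine serum, and for the third group the labels also name insulin, without an amount. No group received OVA alone, so that the effect of OVA could be compared only in the presence of A1. Per the study's methods the MSCs came from female mice and were expanded in culture and frozen before use. Whether the 4 samples of a group came from separate mice or cultures is not given in the labels, so that all p-values measure the spread between these samples, which may be technical.

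TGF-beta is secreted as a latent complex, in which the ligand is held by its own propeptide and by a latent TGF-beta binding protein that ties it to the matrix. Once released, it binds TGFBR2, which recruits and phosphorylates TGFBR1, and the active pair phosphorylates SMAD2 and SMAD3. These enter the nucleus with SMAD4 and switch on target genes, among them the inhibitors SMAD7 and SnoN, the product of Skil, which close a negative feedback loop. In MSCs the pathway is known for its part in matrix production, in the choice between cell fates and in the suppression of immune cells.

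Each sample held between 13702348 and 16881995 counts. The 4 A1-treated samples (up to 14347870 counts) were all shallower than the 4 control samples (from 15644991 counts), a difference that was scaled out by the normalization. The members had 415 to 7528 counts per sample, far above the 3 counts taken as the floor of detection. Of the 10 MSC markers examined, Col1a1, Cxcl12, Pdgfrb, Pdgfra, Vcam1 and Cd44 had at least 1515 counts in every sample. Ly6a (271 to 598 counts) and Eng (116 to 169 counts) were lower. Thy1 (0 to 17 counts) and Nt5e (7 to 14 counts), the genes of the MSC surface proteins CD90 and CD73, were close to the floor. The summed level of this list was lower in treated cells (8152 to 8558 CPM in control, 5666 to 6053 with A1, 5789 to 6247 with A1 + OVA). With A1, 1 of its 9 tested genes rose (Cd44, log2 fold change 1.39), 4 fell and 4, among them Col1a1 and Pdgfrb, did not pass the test. Cxcl12, one of its most abundant genes, was among those that fell (log2 fold change -1.37). The part of these changes in the results below was not tested. Hematopoietic markers summed to 9.53 to 10.5, 12.1 to 14.96 and 10.7 to 13.2 CPM in the same order, with Spi1 and Tyrobp at 0 counts in all 12 samples and most of the sum in Cd14 (120 to 173 counts per sample). Endothelial markers summed to at most 1.22 CPM with Cldn5 at 0, and platelet markers, from a cell type rich in Tgfb1, to 1.49 to 2.42, 0.993 to 1.23 and 1.01 to 1.48 CPM with Gp9 at 0. In a bulk sample, fewer cells that express a gene and less RNA per cell cannot be told apart.

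The first question was how A1 changed each gene. Levels are given as CPM (counts scaled to the size of the library after TMM normalization), and differences between groups as log2 fold changes with the adjusted p-value of edgeR's quasi-likelihood test, which was fitted over all 11314 tested genes with Benjamini-Hochberg adjustment ("edgeR adjusted p"). A change was called at an adjusted p-value under 0.05. With A1, Tgfb1, Ltbp1, Tgfbr1, Smad7 and Skil rose, and Tgfb2, Tgfb3, Tgfbr2 and Tgfbr3 fell. Smad3 did not pass the test. A1 had a wide effect: 31.7% of all tested genes were called higher and 31.1% lower with A1, so that 5 and 4 of 10 called members say nothing particular about the set. For 9 of the 10 members the 4 A1-treated samples did not overlap with the 4 control samples, beside 54.4% of all tested genes. The members moved apart rather than together. Their log2 fold changes ran from -0.81 (Tgfb2) to 1.06 (Skil) with a median of 0.14, where the median over all tested genes was -0.002.

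**Figure D1:**
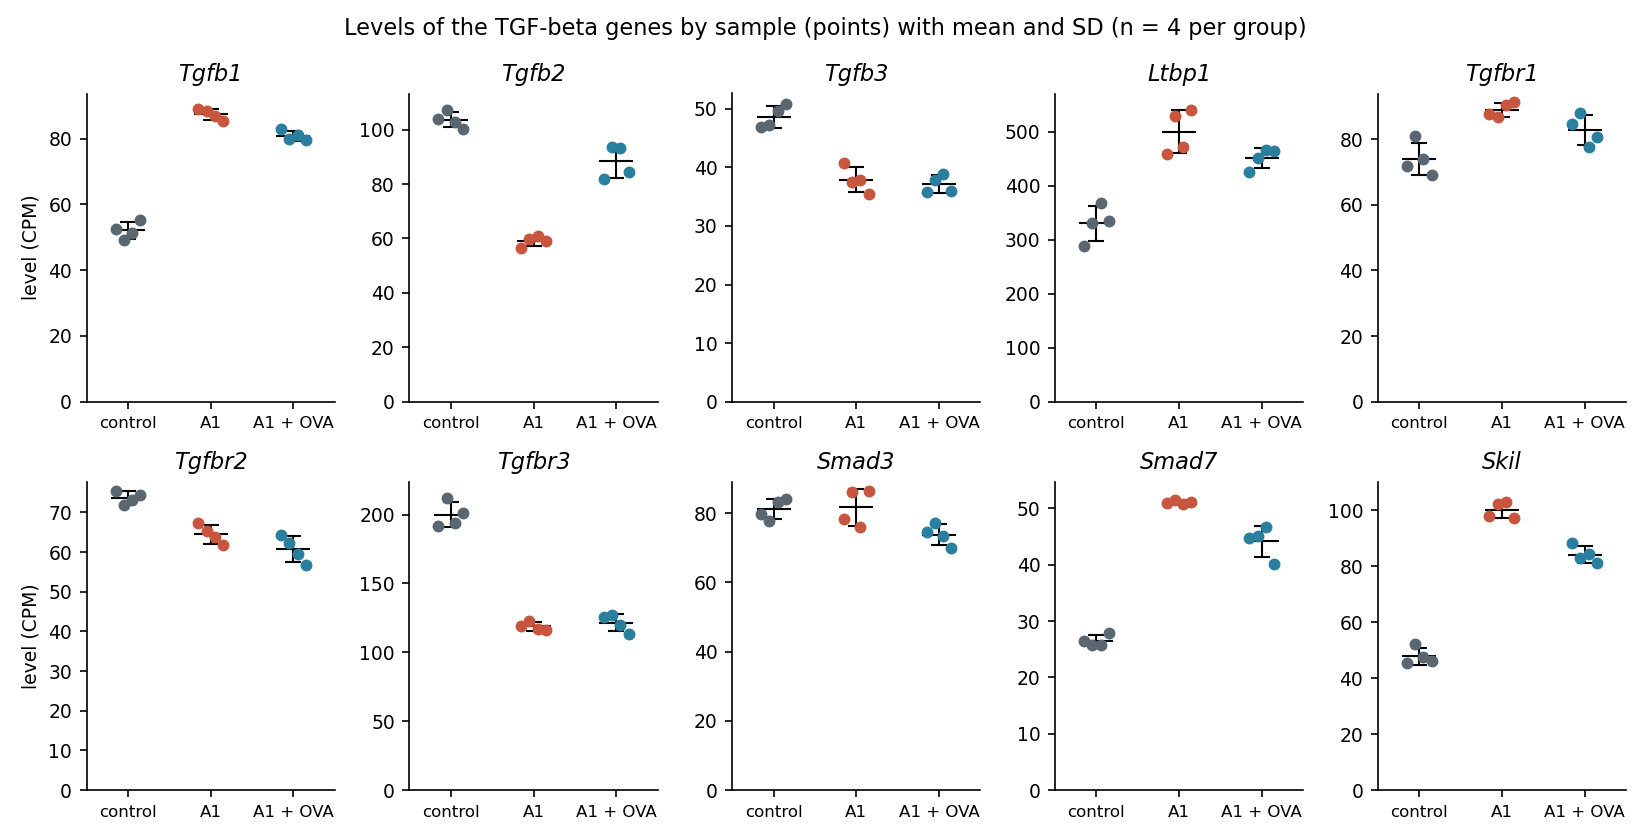
Levels of the 10 genes in CPM (vertical axis, from 0, a separate scale for each gene) in control, A1-treated and A1 + OVA-treated MSCs. Points are the 4 samples of a group, and black bars show the mean and SD. Both treated groups lie above control for Tgfb1, Ltbp1, Smad7 and Skil and below it for Tgfb2, Tgfb3, Tgfbr2 and Tgfbr3, and for Tgfb2 the A1 + OVA samples (82.0 to 93.7 CPM) lie between the other groups.

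Among the ligands, Tgfb1 and Tgfb2 moved in opposite directions. Tgfb1 (ENSMUSG00000002603, chromosome 7 from 25687002 to 25705077 of GRCm38, plus strand) encodes the isoform best known for immune regulation. Its level was 52.5, 49.2, 51.3 and 55.4 CPM in control samples 1 to 4, 89.0, 88.3, 86.8 and 85.3 CPM with A1, and 82.8, 79.8, 81.2 and 79.6 CPM with A1 + OVA. All treated samples were higher than all control samples, and the A1 + OVA samples were all slightly lower than the A1 samples. Tgfb1 rose 1.68-fold with A1 (log2 fold change 0.75, 95% confidence interval 0.66 to 0.83, edgeR adjusted p = 1.7e-12) and 1.55-fold with A1 + OVA (log2 fold change 0.63, 0.55 to 0.72, edgeR adjusted p = 2.79e-11). Between the treated groups the difference of -0.11 did not pass the test (95% confidence interval -0.20 to -0.03, edgeR adjusted p = 0.0801).

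Tgfb2 (ENSMUSG00000039239, chromosome 1 from 186622792 to 186705989, minus strand) encodes an isoform that needs the co-receptor encoded by Tgfbr3 to bind well to its signaling receptors. It was measured at 103.8, 107.2, 102.8 and 100.4 CPM in control samples, at 56.6, 59.7, 61.0 and 59.0 CPM with A1, and at 82.0, 93.7, 93.4 and 84.4 CPM with A1 + OVA. The 3 groups did not overlap: control was highest, A1 lowest, and A1 + OVA lay between. With A1 the level fell to 0.57 of control (log2 fold change -0.81, 95% confidence interval -0.91 to -0.71, edgeR adjusted p = 2.73e-12). With A1 + OVA it fell to 0.853 of control (log2 fold change -0.23, -0.32 to -0.13, edgeR adjusted p = 0.000189). In the direct comparison Tgfb2 was 1.496-fold higher with A1 + OVA than with A1 (log2 fold change 0.58, 0.48 to 0.68, edgeR adjusted p = 8.74e-08), which ranked 211 of 11314 genes by size.

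Tgfb3 (ENSMUSG00000021253, chromosome 12 from 86056745 to 86079041, minus strand), the isoform known from palate closure, was lower in both treated groups. Its level was 46.9, 47.3, 49.6 and 50.8 CPM in control samples, 40.8, 37.6, 37.9 and 35.5 CPM with A1, and 35.9, 37.9, 38.9 and 36.0 CPM with A1 + OVA. No treated sample reached the lowest control sample, and the treated groups overlapped. The log2 fold change was -0.36 with A1 (edgeR adjusted p = 4.28e-06) and -0.39 with A1 + OVA (edgeR adjusted p = 1.46e-06). Between the treated groups it was -0.03, with a 95% confidence interval of -0.14 to 0.08 (edgeR adjusted p = 0.771).

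The start regions of Tgfb1 and Tgfb2 are shown because these ligand genes moved in opposite directions with A1. Each sequence holds the 250 bases before the annotated start (RefSeq, GRCm38.p6), written 5′ to 3′ on the strand of the gene, at chr7:25686752-25687001 on the plus strand for Tgfb1 and at chr1:186705990-186706239 on the minus strand for Tgfb2. Capitals mark matches to 7 motifs: the GC box GGGCGG or CCGCCC, the TATA box TATAAA, the E-box CACGTG, the SMAD-binding letters CAGACA or TGTCTG, the palindromic SMAD element GTCTAGAC, the AP-1 motif TGAGTCA or TGACTCA, and the CRE motif TGACGTCA. Both strands were searched, except for TATAAA, which was searched on the strand of the gene.
Tgfb1: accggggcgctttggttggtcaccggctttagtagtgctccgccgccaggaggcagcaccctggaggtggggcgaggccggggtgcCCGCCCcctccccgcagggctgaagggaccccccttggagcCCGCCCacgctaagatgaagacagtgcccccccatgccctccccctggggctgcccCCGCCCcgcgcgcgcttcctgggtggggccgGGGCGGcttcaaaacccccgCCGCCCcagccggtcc
Tgfb2: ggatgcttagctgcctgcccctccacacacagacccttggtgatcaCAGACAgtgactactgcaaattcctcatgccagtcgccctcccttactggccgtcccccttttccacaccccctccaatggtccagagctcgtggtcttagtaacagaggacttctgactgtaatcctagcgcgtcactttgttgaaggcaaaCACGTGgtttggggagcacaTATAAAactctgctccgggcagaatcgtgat

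The Tgfb1 window held 5 GC boxes and none of the other 6 motifs, and its GC content of 75.2% was higher than that of 96.1% of the 32851 promoters of the same length. The Tgfb2 window held no GC box, but a TATAAA that begins at position -31 from the start, a CACGTG at -51 and a CAGACA at -204, with a GC content of 53.6% (median of all promoters 52.4%). Matches did not overlap. Of all promoters, 32.7% held a GC box, 7.59% TATAAA, 6.02% CACGTG, 17.1% CAGACA, 0.167% GTCTAGAC, 4.46% TGAGTCA and 1.55% TGACGTCA. Promoters were matched for 6 of the 10 members. The window of Smad3 held 2 GC boxes, the first of the 2 starts of Tgfbr1 had 2 GC boxes and the second 1 CAGACA, the first start of Ltbp1 had 1 TGACGTCA and the second 2 CAGACA, and the window of Tgfbr2 held none of the 7 motifs. Tgfb3, Tgfbr3 and Skil were not matched. Entries on chromosome 18, where Smad7 lies, were left out of the match, so that Smad7 was not examined. These matches describe letters and do not show binding.

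To compare genes with each other, CPM was divided by the length of the exons of a gene (RPKM). On this scale Tgfb2 was the most abundant ligand in control MSCs (17.9 ± 0.49 RPKM, SD, n = 4), followed by Tgfb3 (14.4 ± 0.55 RPKM) and Tgfb1 (10.3 ± 0.51 RPKM), with no overlap between the samples of neighbours. With A1, Tgfb1 came first (17.3 ± 0.32 RPKM), ahead of Tgfb3 (11.2 ± 0.64 RPKM) and Tgfb2 (10.2 ± 0.32 RPKM), and the samples of the last pair overlapped. With A1 + OVA, Tgfb1 (16.04 ± 0.30 RPKM) and Tgfb2 (15.3 ± 1.0 RPKM) overlapped, and Tgfb3 followed (10.99 ± 0.44 RPKM). As a share of the summed ligand level per length, Tgfb1 went from 24.3% ± 0.96 in control to 44.7% ± 0.37 with A1 and 37.96% ± 1.5 with A1 + OVA, and Tgfb2 from 42.0% ± 1.6 to 26.4% ± 1.1 and 36.1% ± 1.4 (SD, n = 4). The place of Tgfb1 depends on the length: with the longest annotated transcript, which is shorter than the union of its exons (2573 against 5042 bases), its share was 36.9% in control, equal to that of Tgfb2 (36.9%), 59.9% with A1 and 52.7% with A1 + OVA. The direction of each change was the same with both lengths.

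**Figure D2:**
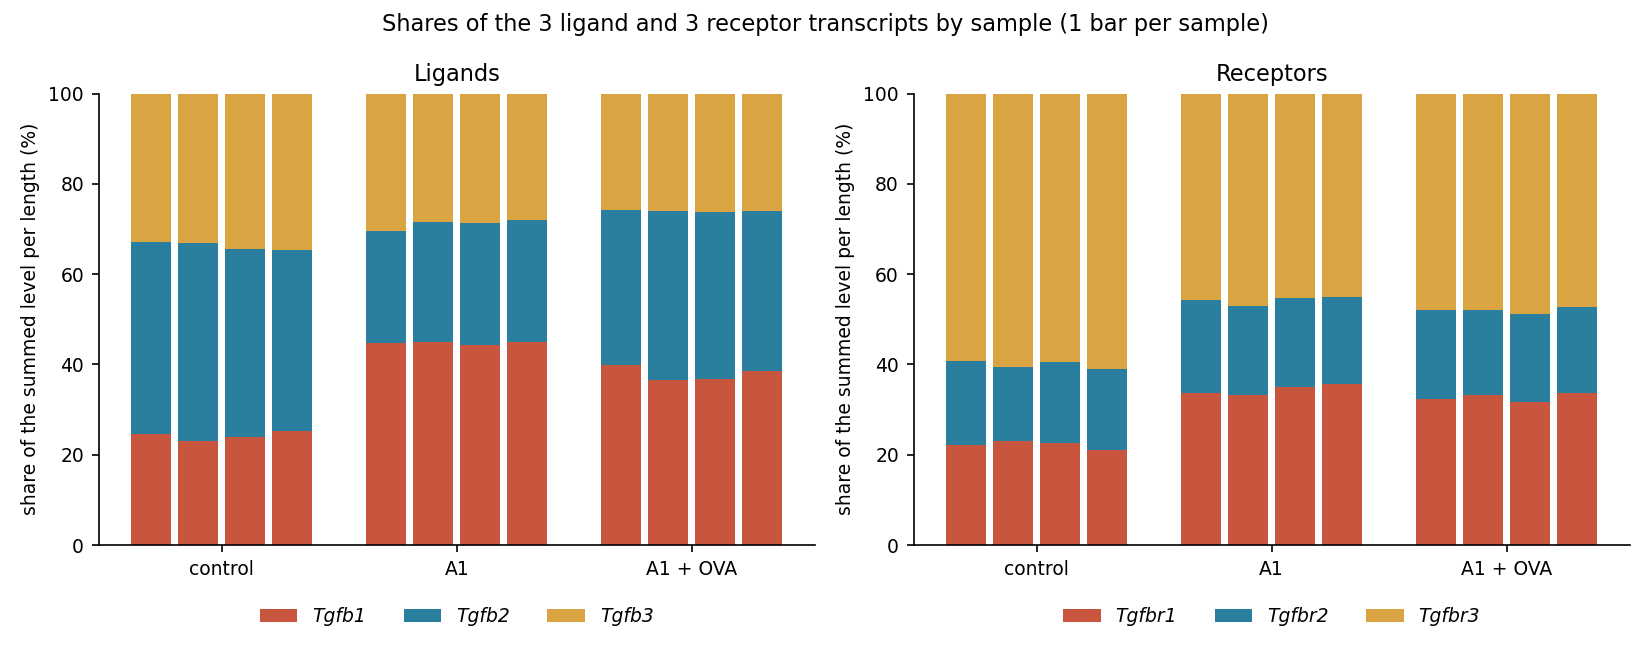
Shares of the 3 ligand transcripts (left) and the 3 receptor transcripts (right) in their summed level per length (vertical axis, percent), with 1 stacked bar for each of the 4 samples of control, A1-treated and A1 + OVA-treated MSCs. In every treated sample Tgfb1 held at least 36.6% of the ligand level against at most 25.3% in control samples, and Tgfbr3 held at most 48.8% of the receptor level against at least 59.2%.

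Ltbp1 (ENSMUSG00000001870, chromosome 17 from 75005568 to 75392512, plus strand) encodes the latent TGF-beta binding protein that anchors the latent complex in the matrix. It was the most abundant member per length in both treated groups (46.8 ± 3.8 RPKM with A1), while in control its samples (30.9 ± 3.0 RPKM) overlapped with those of Tgfbr3. With the longest transcript as length Ltbp1 came first in control too (49.6 ± 4.9 RPKM, against 32.8 ± 1.5 RPKM for Tgfbr3, SD, n = 4). Its level was 288.8, 331.2, 367.7 and 335.4 CPM in control samples, 459.4, 529.8, 472.6 and 539.8 CPM with A1, and 426.4, 451.7, 466.4 and 463.9 CPM with A1 + OVA. Both treated groups lay above control and overlapped with each other. Ltbp1 rose 1.51-fold with A1 (log2 fold change 0.60, 95% confidence interval 0.47 to 0.72, edgeR adjusted p = 2.22e-08) and 1.37-fold with A1 + OVA (edgeR adjusted p = 1.59e-06). The difference of -0.15 between the treated groups did not pass the test (edgeR adjusted p = 0.116).

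The 3 receptor genes differed in direction and size. Tgfbr1 (ENSMUSG00000007613, chromosome 4 from 47353222 to 47414931, plus strand) encodes the type I receptor kinase that phosphorylates SMAD2 and SMAD3. It was measured at 72.0, 80.9, 74.1 and 69.2 CPM in control samples, at 87.6, 86.8, 90.3 and 91.3 CPM with A1, and at 84.7, 88.0, 77.7 and 80.8 CPM with A1 + OVA. The A1 samples lay above control, while the A1 + OVA samples overlapped with both other groups. Tgfbr1 rose by a log2 fold change of 0.27 with A1 (95% confidence interval 0.16 to 0.37, edgeR adjusted p = 8.45e-05) and of 0.16 with A1 + OVA (0.06 to 0.26, edgeR adjusted p = 0.00801).

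Tgfbr2 (ENSMUSG00000032440, chromosome 9 from 116084293 to 116175360, minus strand) encodes the type II receptor that binds the ligand first. It was measured at 75.4, 71.8, 73.3 and 74.5 CPM in control samples, at 67.3, 65.4, 63.7 and 61.7 CPM with A1, and at 64.2, 62.3, 59.6 and 56.7 CPM with A1 + OVA. Both treated groups were below control and overlapped with each other. Tgfbr2 fell to 0.875 of control with A1 (log2 fold change -0.19, edgeR adjusted p = 0.000959) and to 0.822 with A1 + OVA (log2 fold change -0.28, edgeR adjusted p = 1.68e-05).

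Tgfbr3 (ENSMUSG00000029287, chromosome 5 from 107106570 to 107289629, minus strand) encodes betaglycan, the co-receptor that presents TGF-beta, above all the isoform TGF-beta 2, to TGFBR2. It was the receptor gene with the highest level per length in control MSCs (30.5 ± 1.4 RPKM, against 11.3 ± 0.76 RPKM for Tgfbr1 and 9.01 ± 0.19 RPKM for Tgfbr2, SD, n = 4). Its level was 192.0, 211.8, 194.2 and 201.2 CPM in control samples, 119.3, 123.1, 117.1 and 116.0 CPM with A1, and 125.5, 127.3, 119.6 and 113.5 CPM with A1 + OVA. All treated samples were far below control, and the treated groups overlapped. Tgfbr3 fell to 0.595 of control with A1 (log2 fold change -0.75, 95% confidence interval -0.84 to -0.66, edgeR adjusted p = 1.65e-12) and to 0.608 with A1 + OVA (log2 fold change -0.72, -0.81 to -0.63, edgeR adjusted p = 3.29e-12). Its share of the summed receptor level per length went from 60.0% ± 0.86 to 45.8% ± 0.81 and 48.0% ± 0.60 (SD, n = 4). None of the 3 receptor genes passed the test between the treated groups, with log2 fold changes of -0.10 for Tgfbr1, -0.09 for Tgfbr2 and 0.03 for Tgfbr3 (edgeR adjusted p of 0.173, 0.218 and 0.693).

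Smad3 (ENSMUSG00000032402, chromosome 9 from 63646767 to 63757994, minus strand), the receptor-activated SMAD that binds DNA at target genes, was the member that moved least against control in both treated groups. Its level was 79.9, 77.8, 83.3 and 84.1 CPM in control samples, 78.3, 86.1, 76.0 and 86.3 CPM with A1, and 74.4, 77.3, 73.5 and 70.0 CPM with A1 + OVA. The A1 samples spread across the whole control range, and the A1 + OVA samples lay just below control. The log2 fold change with A1 was 0.01, with a 95% confidence interval of -0.09 to 0.11 (edgeR adjusted p = 0.911), and its sign turned with upper-quartile normalization (-0.02). With A1 + OVA Smad3 fell slightly (log2 fold change -0.14, 95% confidence interval -0.24 to -0.04, edgeR adjusted p = 0.0169). That call rested on single samples: it was lost without control replicate 4 (edgeR adjusted p = 0.0559) and without A1 + OVA replicate 4 (edgeR adjusted p = 0.0669). The difference of -0.15 between the treated groups lay at the threshold (edgeR adjusted p = 0.0513).

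The feedback genes rose most. Skil (ENSMUSG00000027660, chromosome 3 from 31095058 to 31122577, plus strand) encodes SnoN, a corepressor that binds SMAD complexes on DNA. It was measured at 45.6, 52.1, 47.7 and 46.0 CPM in control samples, at 98.0, 102.4, 103.1 and 97.2 CPM with A1, and at 88.5, 83.1, 84.4 and 81.0 CPM with A1 + OVA. The 3 groups did not overlap, with A1 highest and control lowest. Skil rose 2.09-fold with A1 (log2 fold change 1.06, 95% confidence interval 0.97 to 1.16, edgeR adjusted p = 2.62e-14) and 1.76-fold with A1 + OVA (log2 fold change 0.81, 0.72 to 0.91, edgeR adjusted p = 2.75e-12). With A1 it ranked 646 of 11314 genes by the size of the change.

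Smad7 (ENSMUSG00000025880, chromosome 18 from 75367529 to 75395935, plus strand) encodes the inhibitory SMAD that blocks TGFBR1 and recruits ubiquitin ligases to it. Its level was 26.4, 25.7, 25.7 and 27.96 CPM in control samples, 50.9, 51.5, 50.8 and 51.1 CPM with A1, and 44.7, 45.1, 46.7 and 40.2 CPM with A1 + OVA. As for Skil, the groups did not overlap and A1 was highest. Smad7 rose 1.93-fold with A1 (log2 fold change 0.95, 95% confidence interval 0.84 to 1.06, edgeR adjusted p = 1.42e-12) and 1.67-fold with A1 + OVA (log2 fold change 0.74, 0.63 to 0.85, edgeR adjusted p = 1.15e-10). In control MSCs Skil (4.94 ± 0.31 RPKM) and Smad7 (5.85 ± 0.24 RPKM) were the 2 members with the lowest level per length, and with A1 both overlapped with Tgfb3 on this scale (10.3 ± 0.31 RPKM for Skil and 11.3 ± 0.069 RPKM for Smad7, SD, n = 4). With the longest transcript as length both were still lowest in control, with Smad7 below Skil, and Skil was higher than Tgfb3 with A1 (14.9 ± 0.44 against 11.2 ± 0.64 RPKM).

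When a log2 fold change of at least 0.5 in either direction was also required, 4 members rose with A1 (Tgfb1, Ltbp1, Smad7 and Skil) and 2 fell (Tgfb2 and Tgfbr3), where 9.41% of all tested genes were called higher and 11.6% lower by this rule. The second question was whether the same genes changed when OVA was present. A1 + OVA and A1 share their control samples, and each comparison is given by its own values. With A1 + OVA all 10 members passed an adjusted p-value under 0.05, 5 higher (Tgfb1, Ltbp1, Tgfbr1, Smad7 and Skil; 29.7% of all tested genes) and 5 lower (Tgfb2, Tgfb3, Tgfbr2, Tgfbr3 and Smad3; 27.9%). With the fold threshold, 3 rose (Tgfb1, Smad7 and Skil; 8.92% of all tested genes) and Tgfbr3 fell (8.79%). Samples did not overlap with control for 9 members, all but Tgfbr1, beside 49.4% of all tested genes. The median log2 fold change of the members was 0.01, and that of all tested genes 0.004.

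**Figure D3:**
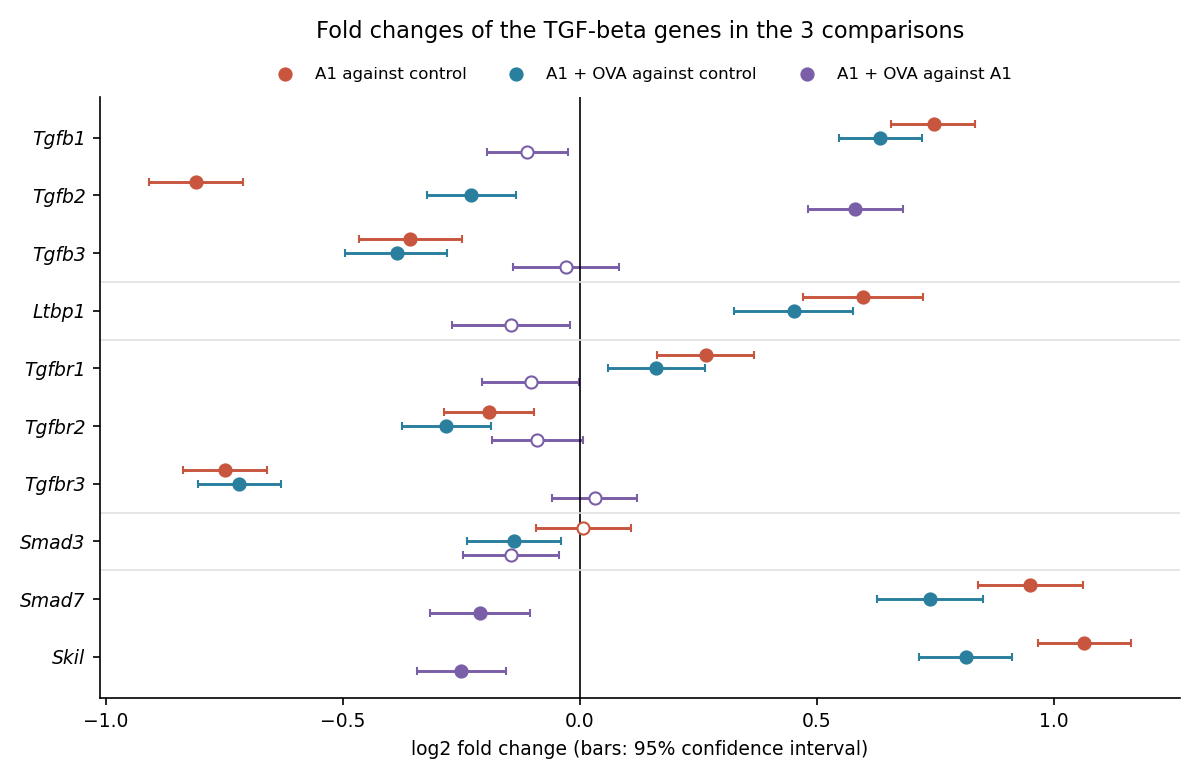
Log2 fold changes (horizontal axis) of the 10 genes with A1 against control (red), A1 + OVA against control (blue) and A1 + OVA against A1 (purple), with 95% confidence intervals. Filled points passed an adjusted p-value under 0.05. Tgfb2 stands out in the third comparison at 0.58, and Skil and Smad7 lie below 0 there at -0.25 and -0.21.

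The direct comparison of A1 + OVA with A1 tests the difference between the treatments. As the labels name insulin for the A1 + OVA group, its part and that of OVA cannot be told apart. Tgfb2 was higher with A1 + OVA, and Skil and Smad7 were lower, while the other 7 members did not pass the test. Of all tested genes, 6.05% were called higher and 6.81% lower. Tgfb2 was also the member past the fold threshold, which 0.769% of all tested genes passed upward and 0.433% downward. Skil was at 0.841 of its level with A1 (log2 fold change -0.25, 95% confidence interval -0.34 to -0.16, edgeR adjusted p = 0.000854), and Smad7 at 0.864 (log2 fold change -0.21, -0.32 to -0.11, edgeR adjusted p = 0.00852). Samples of the treated groups did not overlap for these 3 genes and for Tgfb1, beside 18.1% of all tested genes. All 3 genes lay closer to control with A1 + OVA than with A1. The median log2 fold change of the members was -0.11, and that of all tested genes 0.006.

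**Figure D4:**
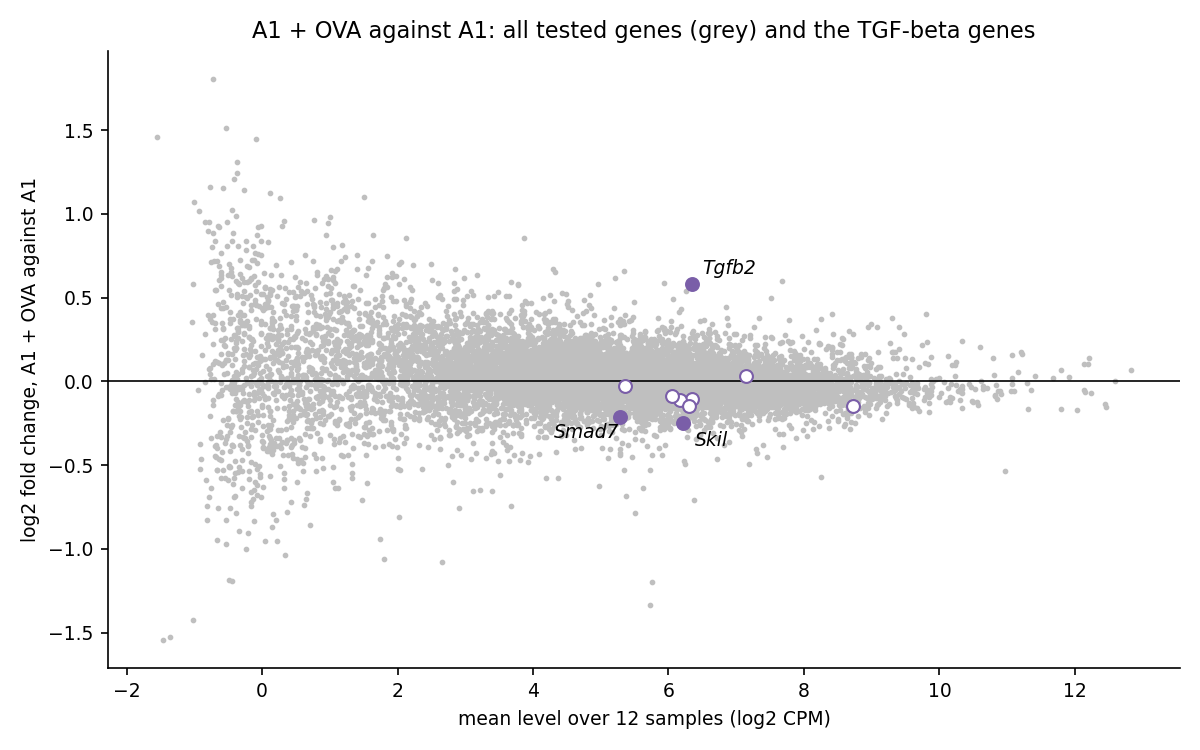
Log2 fold change of A1 + OVA against A1 (vertical axis) by the mean level over the 12 samples (horizontal axis, log2 CPM) for the 11314 tested genes (grey) and the 10 TGF-beta genes (purple, filled where the adjusted p-value was under 0.05). Tgfb2, at 0.58, lies near the upper edge of the grey points at its level, and Skil and Smad7 lie on the lower side of the cloud.

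Other genes of the pathway were taken from 4 lists with 120 genes, of which 100 were tested. With A1, 51 rose and 25 fell (31.7% and 31.1% of all tested genes), and with A1 + OVA 51 rose and 25 fell (29.7% and 27.9% of all tested genes). Between the treated groups 10 were higher and 13 lower with A1 + OVA than with A1 (6.05% and 6.81% of all tested genes). The lists are described by counts and medians, and nothing particular to them is drawn from these.

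Of 24 genes for the latent complex and its activation, 20 were tested. With A1, 13 rose, 2 fell and 5 did not pass the test, beside 31.7% and 31.1% of all tested genes called higher and lower. The list had a median log2 fold change of 0.32, and all tested genes one of -0.002. Itgb3, the integrin beta 3 chain, which pairs with the alpha V chain, rose from 4.13 ± 0.49 to 14.3 ± 1.0 CPM with A1 (SD, n = 4, log2 fold change 1.80, edgeR adjusted p = 6.91e-12) and was at 14.1 ± 1.7 CPM with A1 + OVA. Its partner Itgav rose from 429.7 ± 34 to 699.9 ± 25 CPM (log2 fold change 0.70, edgeR adjusted p = 4.2e-11) and was at 672.4 ± 24 CPM with A1 + OVA. Thbs1, thrombospondin 1, a matrix protein that activates latent TGF-beta, rose from 2734 ± 243 to 5999 ± 554 CPM (log2 fold change 1.13, edgeR adjusted p = 4.11e-12) and was at 6602 ± 531 CPM with A1 + OVA. Of the other integrin beta chain genes tested in this list, Itgb1 (log2 fold change 0.62) and Itgb5 (0.30) rose. Itgb8, whose product pairs with the same alpha V chain, fell (log2 fold change -0.65, edgeR adjusted p = 4.88e-05). Itgb1, Itgb5 and Itgb8 are named after their values were seen. Lrrc32, known as GARP, which holds latent TGF-beta on the cell surface, rose from 203.8 ± 9.8 to 327.2 ± 9.0 CPM (log2 fold change 0.68, edgeR adjusted p = 8.44e-12). Lrrc32 was the gene of this list that passed the test between the treated groups, with 423.3 ± 21 CPM with A1 + OVA (log2 fold change 0.37, edgeR adjusted p = 5.46e-06).

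Of 36 regulators of receptors and SMADs, 35 were tested, and with A1 12 rose, 10 fell and 13 did not pass the test (median log2 fold change 0.02, all tested genes -0.002). These counts lie near the shares of all tested genes (31.7% higher and 31.1% lower). Pmepa1, which like Smad7 is an inhibitor induced by the pathway, rose from 93.4 ± 2.9 to 341.4 ± 14 CPM (log2 fold change 1.87, edgeR adjusted p = 3.23e-19). It was lower with A1 + OVA than with A1 (274.7 ± 11 CPM, log2 fold change -0.31, edgeR adjusted p = 2.08e-05). Vasn, vasorin, which binds TGF-beta outside the cell, rose from 105.7 ± 8.7 to 204.6 ± 7.2 CPM (edgeR adjusted p = 5.17e-13), and Tgif1, a SMAD corepressor, from 69.1 ± 2.2 to 119.5 ± 1.7 CPM (edgeR adjusted p = 1.22e-13). Usp11, a deubiquitinase described to stabilize TGFBR1 and TGFBR2, fell from 13.0 ± 1.8 to 5.87 ± 0.81 CPM (log2 fold change -1.15, edgeR adjusted p = 6.55e-08). It was higher with A1 + OVA than with A1 (8.38 ± 1.2 CPM, log2 fold change 0.52, edgeR adjusted p = 0.0146), a call that was lost without A1 replicate 1, A1 replicate 3 or A1 + OVA replicate 4 (edgeR adjusted p of 0.0519, 0.0587 and 0.0631).

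Activins and related ligands signal through other receptors to the same SMAD2 and SMAD3. Of 20 genes of this group 9 were tested, and with A1 3 rose, 5 fell and 1 did not pass the test, beside 31.7% and 31.1% of all tested genes called higher and lower (median log2 fold change -0.14, all tested genes -0.002). The activin subunit genes rose: Inhbb from 2.65 ± 0.31 to 12.3 ± 1.5 CPM (log2 fold change 2.21, edgeR adjusted p = 6.08e-13) and Inhba from 142.1 ± 8.8 to 403.1 ± 36 CPM (log2 fold change 1.503, edgeR adjusted p = 1.13e-15). Fstl3, which binds and neutralizes activins, rose from 27.4 ± 1.8 to 53.0 ± 1.7 CPM (log2 fold change 0.96, edgeR adjusted p = 1.21e-12). Gdf11, a related ligand, fell from 47.3 ± 1.3 to 30.02 ± 1.6 CPM (log2 fold change -0.66, edgeR adjusted p = 1.24e-09). The other genes of this group that fell were the receptor genes Acvr2a (log2 fold change -0.424) and Acvr1b (-0.415), and Fst (-0.293) and Fstl1 (-0.137). Inhba was higher with A1 + OVA (471.5 ± 6.6 CPM) than with A1 (log2 fold change 0.23, edgeR adjusted p = 0.00684).

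Of 40 known transcriptional targets of TGF-beta, many of which also respond to other signals, 36 were tested. With A1, 23 rose and 8 fell, beside 31.7% and 31.1% of all tested genes (median log2 fold change 0.51, all tested genes -0.002). With A1 + OVA 24 rose and 8 fell, beside 29.7% and 27.9% (median 0.45, all tested genes 0.004). Ccn2, connective tissue growth factor, rose 11.1-fold with A1, from 126.3 ± 8.6 to 1396 ± 154 CPM (log2 fold change 3.47, SD, n = 4, edgeR adjusted p = 5.21e-20), and Tnc, the matrix protein tenascin C, rose 10.2-fold from 93.5 ± 10 to 958.2 ± 156 CPM (edgeR adjusted p = 1.89e-17). Has2, a hyaluronan synthase, rose from 5.05 ± 0.27 to 30.4 ± 2.5 CPM (log2 fold change 2.59, edgeR adjusted p = 5.16e-17) and was lower with A1 + OVA than with A1 (21.7 ± 0.26 CPM, log2 fold change -0.48, edgeR adjusted p = 2.69e-05). Ccn2 stood at place 17 and Tnc at place 20 of all tested genes by the size of the change with A1.

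**Figure D5:**
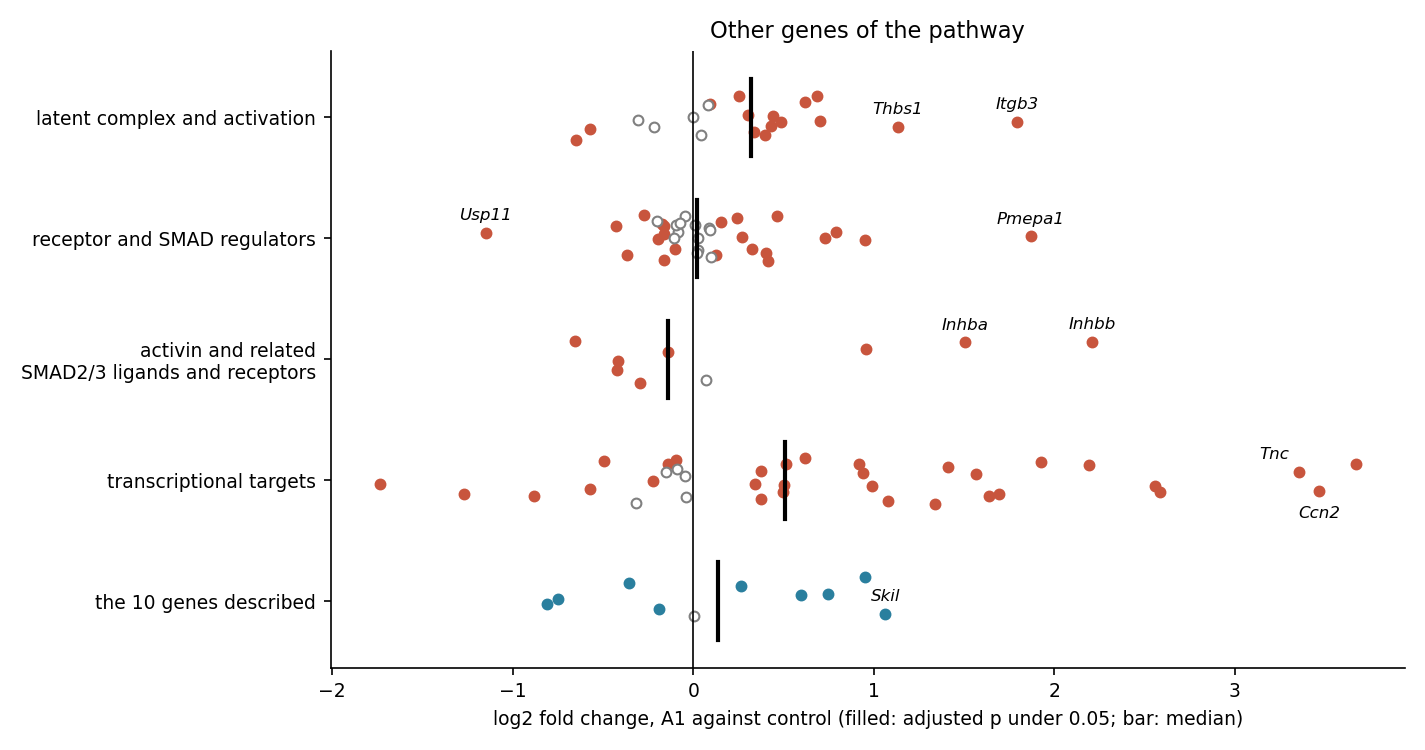
Log2 fold changes with A1 against control (horizontal axis) of the tested genes in the 4 lists of other pathway genes (red) and of the 10 genes described (blue). Filled points passed an adjusted p-value under 0.05 and black bars are medians. The transcriptional targets spread widest, with Comp at -1.74 and Ccn2 at 3.47, and the regulators have a median of 0.02.

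Genes with the most similar pattern were found for the member with the largest rise, Skil, and the one with the largest fall, Tgfb2, by the root mean square difference of log2 CPM over the 12 samples after each gene was centred on its own mean. For Skil the nearest genes were Tm4sf1 (0.066), Nhp2 (0.070), Soat1 (0.070), Lyar (0.074) and Nupr1 (0.079), where the median over all tested genes was 0.478. Their log2 fold changes with A1 lay between 0.93 (Lyar) and 1.08 (Tm4sf1), close to the 1.06 of Skil. For Tgfb2 the nearest genes were Gpnmb (0.108), Mylk (0.121), Serpinb9 (0.121), Sik1 (0.121) and Aoc3 (0.122), with a median over all tested genes of 0.376. All 5 were lower with A1 (log2 fold changes from -0.98 for Mylk to -0.71 for Sik1) and higher with A1 + OVA than with A1 (0.36 for Sik1 to 0.66 for Aoc3). For both members the genes were chosen by likeness over these same samples. Their shared directions and similar sizes therefore follow from the choice.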

How the data were processed

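RNA of 12 MSC samples (3 groups of 4) was measured by strand-specific mRNA sequencing. Per the labels and the study's methods, the authors aligned reads to GRCm38 with STAR (version 2.7), counted them per gene with featureCounts (version 2.0) and deposited raw counts, without normalization, for 55487 Ensembl genes. Symbols, biotypes, coordinates and exon lengths were taken from GENCODE M21, which holds 99.53% of the identifiers. Multi-mapped reads were not traced, so that reads shared between paralogs cannot be judged here.

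Protein-coding genes (21974) passed through filterByExpr and TMM normalization, and the quasi-likelihood test of edgeR (version 4.0.16 under R 4.3.3) was run in 1 fit of all 12 samples, with Benjamini-Hochberg adjustment over the 11314 tested genes. The scripts were tested on simulated data. Log2 CPM, used for the similarity of patterns, has a prior count of 2. Each sample held 13702348 to 16881995 counts, and replicate pairs differed by 1.91 to 6.80 times the counting variance, so that none is a copy. Alternatives were DESeq2 (version 1.42.0), other normalizations and filters, a fit restricted to the compared groups, a fit on every gene of the table, the replicate block, a threshold of 1, another gene length, and each sample left out.

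The members and lists were chosen with earlier results of these data known. Named genes were the members, the 4 genes of each list with the largest change with A1 (adjusted p-value under 0.05, mean log2 CPM of at least 1), and the 5 genes most similar to the member with the largest rise and to that with the largest fall. Of these, 1 gene is not reported here. Samples were grouped by their titles, which the table's columns repeat.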

Additional observations from a re-analysis of the deposited data

Results flagged for a closer look

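In 4 of 81 groups of 4 samples examined (26 named genes and the total counts, in 3 groups each), 1 sample stood apart from the other 3 by Dixon's test (gap to the nearest sample over the range of the group above the 95% critical value). Chance flags about 1 in 20 groups. None of the flagged groups was of a TGF-beta ligand, receptor, SMAD or feedback gene described. With A1, Inhba was at 349.1 CPM in replicate 1 and between 415.2 and 424.4 CPM in the others (gap over range 0.878), and Gdf11 was at 32.4 CPM in replicate 3 and between 28.97 and 29.4 CPM in the others (0.876). With A1 + OVA, Vasn was at 176.5 CPM in replicate 4 and between 192.1 and 194.4 CPM in the others (0.873), and Ccn2 was at 1676 CPM in replicate 3 and between 1529 and 1552 CPM in the others (0.846).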

How the results depend on the processing

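Of the log2 fold changes of the members and named genes under all alternatives, 1527 kept their direction and their side of the threshold, 18 newly passed it, 5 no longer passed it and 10 changed sign. Some left-out samples belonged to the group outside a comparison. There they entered only the filter, the scaling and the estimate of the spread, so that little change was built in. Among members, calls changed for Smad3 and Ltbp1. Without a filter on low counts, 5 members passed the test between A1 + OVA and A1 in place of 3, with Smad3 and Ltbp1 added (edgeR adjusted p of 0.0413 and 0.0327), and the cause was not tested. Across the 20 alternatives, the difference of Smad3 between the treatments stayed on its side of the threshold in 12. With a fold change threshold of 1, which lowers counts by its construction, 1 member (Skil) was called with A1, 0 with A1 + OVA and 0 between the treatments, and 21, 20 and 0 genes of the 4 lists (39, 38 and 1 at 0.5). Smad3 with A1 changed sign with upper-quartile normalization (-0.0225) and with all genes of the file (-4e-04), and ranged from -0.0268 to 0.033 with 1 sample left out. Between A1 + OVA and A1, Tgfb3 ranged from -0.063 to 0.0039 and Itgb3 from -0.0965 to 0.0332 with 1 sample left out. List genes called between the treatments ranged from 15 (without A1 + OVA replicate 4) to 26, and those past the fold threshold from 0 (without A1 replicate 3, A1 + OVA replicate 3 or A1 + OVA replicate 4) to 1. Samples share only a replicate number: after subtraction of the group mean, same-numbered samples correlated at 0.021 on average (-0.132 to 0.156, 12 pairs), and 4 of 12 samples were closest to their own number. With the replicate block, 7134, 6580 and 1488 of all tested genes were called in the 3 comparisons (7098, 6518 and 1455 without it), and members 9, 10 and 4. The block added Ltbp1 (edgeR adjusted p = 0.048) between the treatments and changed no other member's call. The median log2 fold change of all genes lay within 0.031 of 0 under every scaling tried. In proportion, levels per length moved most for Tgfb1, from 10.3 to 20.3 RPKM in control with the longest transcript. The number of 4 samples per group limits what small differences, such as those of Smad3, can show.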

Other observations

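Among the transcriptional targets, groups that were picked after their values were seen moved in different directions with A1. The genes of contractile proteins rose: Acta2 (log2 fold change 0.94), Tagln (1.69), Cnn1 (2.19) and Tpm1 (0.62). Of the fibrillar collagen genes in the list, Col3a1 (-0.50) and Col1a2 (-0.23) fell, Col5a1 (0.35) rose, and Col1a1 (-0.04) did not pass the test. The related transcription factor genes Snai1 (1.41) and Snai2 (-1.27) moved in opposite directions. The ubiquitin ligase genes Smurf1 (0.32) and Smurf2 (-0.37), whose products mark receptors and SMADs for degradation, did so as well.

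Between the treatments, 5 of the 36 tested targets were higher with A1 + OVA than with A1, 7 were lower and 24 did not pass the test. Of all tested genes, 6.05% were called higher and 6.81% lower, and the median log2 fold change of the targets was -0.02. Among those lower, as Skil and Smad7 were, were Has2 (log2 fold change -0.48), Klf10 (-0.44), Snai1 (-0.42) and Junb (-0.34). Hmga2 (-0.265), Tnfrsf12a (-0.177) and Plod2 (-0.171) were lower as well. Among those higher were Postn (0.27), Cdkn2b (0.235), Tsc22d1 (0.148) and Snai2 (0.143). These genes were also picked after their values were seen.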
